A study of Mus musculus with 14 samples.

Results

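A set of genes that mark the formative and primed epiblast were followed through the deposited expression table of 14 mouse embryonic stem (ES) cell lines. They are *Fgf5*, *Otx2*, *Pou3f1*, *Zic2*, *Foxd3*, *Sall2*, *Fgf15*, *Grhl2* and *Sox4*, taken by name, and they make up 9 of the 23298 genes listed. Every line is an independent F1 hybrid derived from a single blastocyst of C57BL/6J (B) and CAST/EiJ (C) mice, with the maternal strain written first. There were 3 BC XX, 3 BC XY and 2 BC XO lines from C57BL/6J mothers, and 3 CB XX and 3 CB XY lines from CAST/EiJ mothers. All lines grew in serum with LIF on inactivated embryonic fibroblasts, which were depleted in consecutive plating steps before RNA isolation, and the XO lines arose spontaneously in the BC cross. The study asked how the sex chromosome complement affects gene expression in ES cells.

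ES cells in serum and LIF fluctuate between a naive state, held by factors such as *Nanog*, *Esrrb* and the *Klf* genes, and states closer to the epiblast that has implanted. As the naive state is left, *Otx2* and *Pou3f1* (Oct6), a homeobox and a POU factor, redirect *Pou5f1* to other enhancers, and the growth factor *Fgf5* is switched on, which has made it the customary marker of the postimplantation epiblast. *Zic2*, *Foxd3*, *Sall2* and *Sox4* encode zinc finger, forkhead and HMG box factors, *Grhl2* encodes an activator of epithelial genes whose sites open in the formative state, and *Fgf15* encodes a secreted growth factor.

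The labels were examined first. *Uty*, a Y-linked gene, was at 2088, 1529 and 945 in BC XY lines and 1149 in CB XY 1. Lines labelled CB XY 2 and 3 had 19.6 and 45.4, which is within the range of the XX and XO lines (12.8 to 195). *Eif2s3y*, also Y-linked, did not separate the groups, at 317 in BC XX 3 and 40.8 in BC XY 3. X-linked RNA (median log2 deviation of 499 genes from their median over the lines) was at -0.437 and -0.08 in CB XY 2 and 3. It was at 0.263 to 0.509 in the XX lines and at -0.356 to -0.06 in the other XY and XO lines. The libraries labelled CB XY 2 and 3 thus go against their label in *Uty* but not in X-linked RNA. Calls and correlation counts that rest on them are also given without them. Numbers of the CB XX lines follow their columns. Depth, taking the smallest step between values as 1 read, ran from 11904367 to 69646417 reads. The 24 fibroblast markers, none of them at 0 in any line, summed to between 103728 and 203505 in the BC XX lines and to between 8861 and 33991 in the other 11 lines. The ES cell genes *Pou5f1*, *Sox2* and *Sall4* summed to between 25125 and 58578 and were present in every line.

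All 9 genes were detected in every line. Values are reads per gene that the authors scaled to a common depth. Per kilobase of exon, the median over the 14 lines was highest for *Fgf5* (481), followed by *Zic2* (424), *Otx2* (258), *Grhl2* (202) and *Sox4* (160), and it was lowest for *Pou3f1* (73.9), *Foxd3* (73.9), *Fgf15* (70.6) and *Sall2* (52.9). The span between lines was widest for *Fgf15*, with 18.0-fold between the highest and the lowest line, for *Fgf5* (12.5-fold) and for *Foxd3* (6.29-fold). That of *Fgf15* rested on 1 low value, 14.2 in CB XX 1, where 1 read was worth 1.42. The next lowest line was at 42.8. The span was narrowest for *Grhl2* (2.87-fold) and *Zic2* (3.03-fold). None of the genes is X-linked, as they lie on chromosomes 4, 5, 7, 13, 14 and 15.

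Promoter sequence was available from RefSeq (GRCm38.p6) for 5 of the genes, *Fgf5*, *Foxd3*, *Sox4*, *Otx2* and *Sall2*, at 9 start sites, and was read for the 250 bases before each start. The sequences of *Fgf5* and *Foxd3* are shown because these genes had the widest span between lines among the 5. CG dinucleotides, the sites of DNA methylation, are in capitals. The *Fgf5* window lies at chr5:98253934-98254183 on the plus strand, and the *Foxd3* window at chr4:99656049-99656298 on the plus strand.
*Fgf5*: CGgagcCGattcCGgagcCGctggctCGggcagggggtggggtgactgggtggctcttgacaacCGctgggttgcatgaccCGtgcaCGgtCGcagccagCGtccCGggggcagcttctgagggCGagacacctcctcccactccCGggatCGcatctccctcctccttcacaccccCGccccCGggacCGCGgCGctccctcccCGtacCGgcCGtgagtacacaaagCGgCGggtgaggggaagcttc
*Foxd3*: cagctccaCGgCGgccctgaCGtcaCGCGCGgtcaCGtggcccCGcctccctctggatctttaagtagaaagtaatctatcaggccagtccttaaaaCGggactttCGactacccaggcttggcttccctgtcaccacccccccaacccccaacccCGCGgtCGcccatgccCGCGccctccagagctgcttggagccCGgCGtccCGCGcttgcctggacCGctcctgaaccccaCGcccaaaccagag
The *Fgf5* window held 24 CG dinucleotides, more than 88.0% of all 32851 windows of this length, and the *Foxd3* window held 21, more than 83.7%, against a median of 6. The 9 windows ranged from 0 (1 of the *Sall2* starts) to 24. Motifs were searched on both strands. The Otx homeobox motif TAATCC was found in 1 of the 9 windows, 211 bases before 1 of the 4 *Otx2* starts, and in 6.25% of all windows. The octamer ATGCAAAT (1.60% of all windows), the Grhl motif AACCGGTT (0.116%) and the TCF and LEF motif CTTTGA (13.8%) were in none of the 9.

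Of the growth factors, *Fgf5* was lowest in the CB XX lines. The gene lies at chr5:98683203-98706049 on the plus strand of mm9, the build of the files. It measured 1221, 1305 and 1679 in the BC XX lines, 1434, 1671 and 769 in the BC XY lines, and 1507 and 1332 in the XO lines. In the CB cross it measured 156, 134 and 516 in the XX lines and 1185, 454 and 796 in the lines labelled XY. CB XX 1 and CB XX 2 were therefore the lowest of all lines, and CB XX 3 overlapped the lines labelled CB XY. Group means were in the order BC XO (1419 ± 123, SD, n = 2), BC XX (1402 ± 244, n = 3), BC XY (1291 ± 468, n = 3), CB XY (812 ± 366, n = 3) and CB XX (269 ± 215, n = 3), and each neighbouring pair in this order overlapped.

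*Fgf15* measured 98.8, 172 and 128 in the BC XX lines, 195, 256 and 128 in the BC XY lines and 175 and 214 in the XO lines. The CB XX lines had 14.2, 105 and 96.9, and the lines labelled CB XY had 170, 44.2 and 42.8. The low values thus came from CB XX 1 and from the lines labelled CB XY 2 and 3, and neighbouring groups in the order of means overlapped.

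*Otx2* varied less. It measured 908, 1083 and 970 in BC XX lines, 1164, 1383 and 875 in BC XY lines, 790 and 1169 in XO lines, 846, 876 and 744 in CB XX lines, and 838, 420 and 559 in lines labelled CB XY. The lowest values were those of the lines labelled CB XY 2 and 3. *Pou3f1*, its partner factor, had another pattern, with 208, 232 and 148 in BC XX lines, 214, 293 and 145 in BC XY lines, 179 and 322 in XO lines and 209, 357 and 115 in CB XX lines. The lines labelled CB XY had 652, 408 and 584 and lay above all other 11 lines.

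*Zic2* measured 1212, 1222 and 1152 in the BC XX lines, which were the 3 lowest of the 14 lines, and 1887, 1554 and 1995 in the BC XY lines. It was at 1546 and 2157 in the XO lines, at 1663, 2413 and 1388 in the CB XX lines and at 3488, 1921 and 2094 in the lines labelled CB XY. *Foxd3* measured 179, 158 and 104 in BC XX lines, 251, 118 and 114 in BC XY lines, and 148 and 171 in XO lines. It was at 655, 649 and 107 in CB XX lines and at 600, 290 and 514 in the lines labelled CB XY. Of the 6 CB lines, 5 lay above every BC line, and CB XX 3 lay among the BC lines. *Sall2* measured 264, 401 and 283 in BC XX lines, 307, 350 and 158 in BC XY lines, 292 and 567 in XO lines, 148, 149 and 211 in CB XX lines, and 418, 241 and 348 in the lines labelled CB XY.

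*Grhl2*, at chr15:37162791-37293324 on the plus strand of mm9, was highest in the BC XY lines, at 2238, 1788 and 1514. The other 11 lines lay below all of these, with 1148, 1342 and 1052 in BC XX lines, 1085 and 1497 in XO lines, 958, 916 and 988 in CB XX lines and 1137, 781 and 907 in the lines labelled CB XY. The order of means was BC XY (1847 ± 366, n = 3), BC XO (1291 ± 291, n = 2), BC XX (1181 ± 148, n = 3), CB XX (954 ± 36.1, n = 3) and CB XY (942 ± 180, n = 3). The pairs BC XO and BC XX, and CB XX and CB XY, overlapped. *Sox4* was close to even in the BC cross, with 712, 747 and 707 in XX, 826, 786 and 509 in XY, and 846 and 911 in XO lines. It was at 745, 780 and 496 in CB XX lines, and at 1606, 756 and 1573 in the lines labelled CB XY, of which CB XY 2 overlapped the other groups.

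**Figure D1:**
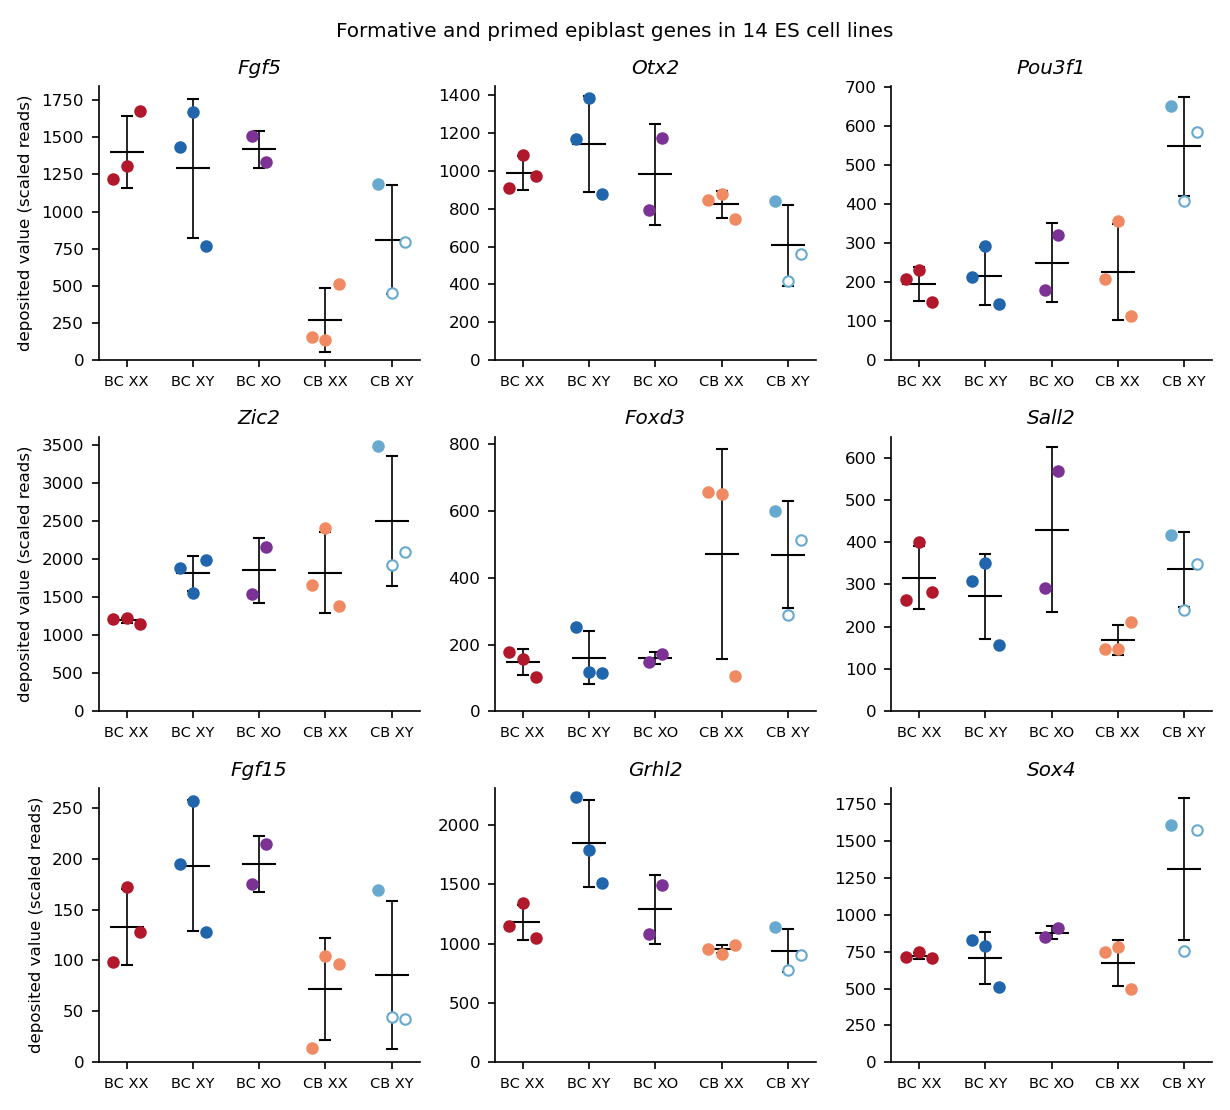
Deposited values (scaled reads, linear axis from 0) of the 9 genes in each line by group, with bars for the mean and SD. Open circles are the lines labelled CB XY 2 and 3, in which the Y-linked *Uty* is within the range of the XX and XO lines. *Fgf5* is lowest in CB XX lines (134 to 516), *Pou3f1* is highest in the lines labelled CB XY (408 to 652) and *Grhl2* is highest in BC XY lines (1514 to 2238).

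Over both crosses, none of the 9 genes was called between 6 XX lines and 6 labelled XY. All 9 passed the filter on low values (a value of 10 or more in 6 lines), and by limma on log2(value + 5) with Benjamini-Hochberg adjustment 0 of 9 had an adjusted p under 0.05, where 5.21% of 15311 genes did. At an unadjusted p of 0.05 there was 1 of 9 (23.1% of all genes), *Zic2* (log2 fold change -0.52, 95% interval -0.97 to -0.07, adjusted p = 0.160), and none of the 9 had groups that did not overlap (3.52% of all genes). Without the lines labelled CB XY 2 and 3, 0 of 9 were called, against 2.01% of all genes. Of the log2 fold changes, 8 were negative and 1 was positive, with a median of -0.41 against -0.03 over all genes tested. The intervals were wide for the genes with the largest span. That of *Fgf5* ran from -2.07 to 0.50 around -0.78 and that of *Pou3f1* from -1.51 to 0.03 around -0.74, whereas that of *Otx2* ran from -0.37 to 0.68 around 0.15. Log2 fold changes were -0.42 for *Sox4*, -0.41 for *Fgf15*, -0.34 for *Sall2*, -0.30 for *Grhl2* and -0.19 for *Foxd3*. This fit had no term for the cross, so that differences between crosses add to the spread. With the cross as a covariate, limma gave an adjusted p of 0.0565 for *Zic2*, 0.129 for *Pou3f1* and 0.223 for *Fgf5*, and none of these passed. The sign of the values of *Otx2*, *Foxd3* and *Fgf15* depended on the lines or covariates included. The fibroblast marker list was positive for 24 of 24 genes in this comparison, with a median log2 fold change of 1.28. With the level of that list as a covariate, *Fgf5* had a log2 fold change of -2.17 (limma, adjusted p = 0.0266), and with the cross as a further covariate -1.78 (adjusted p = 0.0202), beside *Sox4* at -0.94 (adjusted p = 0.0468). The mean log2 level of the list was 10.4 to 11.5 in the BC XX lines and 7.85 to 9.57 in the other lines. These fits can therefore hardly separate it from the BC XX group. Over the 11 lines outside that group, the r of *Fgf5* with this level was 0.02. In RNA from whole cultures, fewer cells that express a gene and less RNA per cell cannot be told apart.

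Within the BC cross, none of the genes passed the test either, although *Zic2* and *Grhl2* were lower in each XX line than in any XY line. Called by limma were 0 of 9, against 5.70% of 16261 genes, with 2 of 9 at an unadjusted p of 0.05 (23.1% of all genes), and 2 of 9 did not overlap between groups, against 27.1% of all genes. The difference was -0.63 on the log2 scale for *Grhl2* (95% interval -1.04 to -0.22, limma adjusted p = 0.0683) and -0.59 for *Zic2* (-1.10 to -0.08, adjusted p = 0.157). *Fgf5* had a log2 fold change of 0.18 with an interval of -0.78 to 1.14, and its sign changed without BC XY 3 (-0.16) and with the fibroblast marker level as a covariate (-1.25). Fibroblast markers were higher in BC XX than in BC XY lines for 24 of 24 genes, 18 of which passed the test, and their part in the values of *Grhl2* and *Zic2* was not tested beyond the covariate. With their level as a covariate, *Grhl2* had a log2 fold change of -1.03 (limma, adjusted p = 0.336) and *Zic2* of -0.93 (adjusted p = 0.565). The mean log2 level of these markers was 10.4 to 11.5 in BC XX and 7.91 to 9.07 in BC XY lines. Without overlap, this fit can hardly separate that level from the group.

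In the CB cross, *Fgf5* fell in XX lines relative to the lines labelled XY, by 1.74 on the log2 scale (SE 0.45, limma adjusted p = 0.0468). It was the 1 gene of 9 called, against 3.57% of all genes called and 1.46% called lower. Its groups overlapped, as CB XX 3 (516) lay above the line labelled CB XY 2 (454). *Pou3f1* (log2 fold change -1.37, adjusted p = 0.0667) and *Sall2* (-0.95, adjusted p = 0.142) were lower in each XX line than in any line labelled XY, but neither passed. *Sox4* did not pass either (-0.91, adjusted p = 0.0927). These 2 of 9 genes without overlap compare with 23.2% of all genes. Of the 9 values, 7 were negative, with a median of -0.44 against -0.02 over all genes. The call of *Fgf5* was close to the threshold. Of 14 fits that omitted 1 line each, 3 kept it (without BC XY 3, CB XX 3 or CB XY 2), with adjusted p between 0.00625 without CB XX 3 and 0.222 without CB XX 2. Without the lines labelled CB XY 2 and 3, a single line with Y-linked RNA remained in its group, and the fold change of *Fgf5* was -2.39 (adjusted p = 0.106, with the spread taken from the other groups). Without CB XY 2 alone, *Sox4* also passed (-1.26, adjusted p = 0.0274), and without CB XX 2, *Pou3f1* passed in place of *Fgf5* (-1.76, adjusted p = 0.0467).

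**Figure D2:**
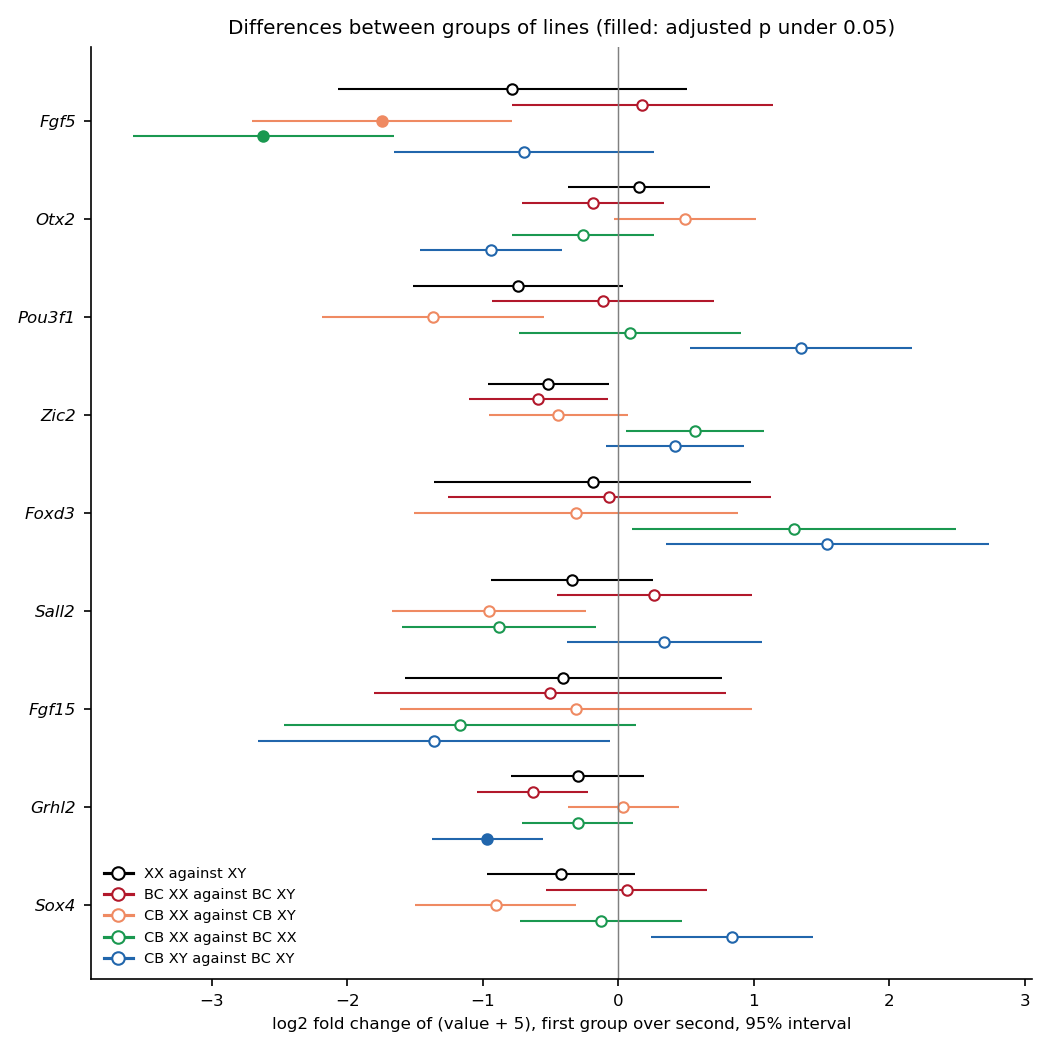
Log2 fold change of (value + 5), first group over second, for 9 genes in 5 comparisons, with 95% intervals from limma. Filled points have an adjusted p under 0.05. They are *Fgf5* in CB XX against CB XY (-1.74) and in CB XX against BC XX (-2.62), and *Grhl2* in CB XY against BC XY (-0.97).

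The XO lines, with a single X and no Y, were compared with both other BC groups. Called by limma were 0 of 9 genes in BC XX against BC XO, where 4.66% of all genes were called, and 0 of 9 in BC XO against BC XY, where 0.00615% were (1 gene in all, and 242 at an unadjusted p of 0.05). At an unadjusted p of 0.05 there was 1 of the 9 in each, against 23.7% of all genes in the first and 1.49% in the second. *Zic2* had the lowest unadjusted p in the first, with the 3 XX lines below both XO lines (log2 fold change -0.61, 95% interval -1.18 to -0.04, limma adjusted p = 0.183). *Grhl2* had it in the second, with both XO lines below the 3 XY lines (-0.52, -0.97 to -0.06, adjusted p = 0.999). Lines did not overlap for 3 of 9 genes in XX against XO (*Zic2*, *Fgf15* and *Sox4*, against 47.2% of all genes) and for 2 of 9 in XO against XY (*Grhl2* and *Sox4*, against 17.6%). *Fgf5*, with XO values of 1507 and 1332, stayed within the range of the BC XX and XY lines.

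Differences between the reciprocal crosses were larger for some of the genes than those between complements. Among XX lines, *Fgf5* fell by 2.62 on the log2 scale in CB relative to BC lines (SE 0.45, limma adjusted p = 0.00656), with no overlap. It was the 1 gene of 9 called, against 7.15% of all genes called and 4.25% called lower, and it stayed called in 14 of 14 fits that left out 1 line, with adjusted p between 0.000255 without CB XX 3 and 0.0454 without BC XX 3. The fibroblast markers were lower in CB XX than in BC XX lines for 22 of 24 genes, 14 of them past the threshold. With their level as a covariate, *Fgf5* had a fold change of -1.55 (limma, adjusted p = 0.588). That level did not overlap between the CB XX (8.16 to 9.57) and BC XX lines (10.4 to 11.5), so this fit can hardly separate it from the group. *Foxd3* (1.29, adjusted p = 0.157), *Zic2* (0.57, adjusted p = 0.149) and *Sall2* (-0.88, adjusted p = 0.117) did not pass. Without CB XX 3, *Foxd3* did (2.15, adjusted p = 0.00364). Lines did not overlap for 5 of 9 genes, against 26.8% of all genes.

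Among lines labelled XY, *Grhl2* fell in the CB cross, by 0.97 on the log2 scale (SE 0.19, limma adjusted p = 0.0379). It was again 1 gene of 9, against 0.0922% of genes called lower, and 0.640% called in either direction. The 3 BC XY lines (1514 to 2238) lay above the 3 lines labelled CB XY (781 to 1137). *Otx2* (-0.94, adjusted p = 0.0779), *Pou3f1* (1.34, adjusted p = 0.0978), *Sox4* (0.84, adjusted p = 0.131), *Foxd3* (1.54, adjusted p = 0.159) and *Fgf15* (-1.36, adjusted p = 0.247) had an unadjusted p under 0.05, as did 18.7% of all genes, and did not pass. Of the 9 genes, 4 did not overlap between groups (*Grhl2*, *Otx2*, *Pou3f1* and *Foxd3*), against 26.8% of all genes. Without the lines labelled CB XY 2 and 3, the fold change of *Grhl2* was -0.68 (adjusted p = 0.400). Over fits that left out 1 line, the call was kept in 6 of 14, with adjusted p up to 0.125 without CB XY 3. It was lost without BC XX 1, BC XX 2, any BC XY line or any line labelled CB XY, and without CB XX 3 there were 3 calls, the others being *Foxd3* (adjusted p = 0.0324) and *Pou3f1* (adjusted p = 0.0475).

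Whether the effect of the complement differed between crosses was tested as an interaction. None of the 9 genes passed, against 0.0738% of all genes, and 5 had an unadjusted p under 0.05, against 9.05% of all genes. The count was also 0 of 9 without the lines labelled CB XY 2 and 3. The difference of log2 fold changes, CB minus BC, was -1.92 for *Fgf5* (95% interval -3.28 to -0.56, limma adjusted p = 0.358), -1.26 for *Pou3f1* (adjusted p = 0.498), -1.22 for *Sall2* (adjusted p = 0.456), -0.97 for *Sox4* (adjusted p = 0.474) and 0.67 for *Grhl2* (adjusted p = 0.474). In the interaction test, fits that left out 1 line gave *Fgf5* adjusted p between 0.0772 without CB XX 3 and 0.653 without BC XX 3. The comparisons within and between crosses share lines, so that their values are not independent.

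The genes did not vary as a single block over the 14 lines. Of 36 pairs, 21 had a positive Pearson r of log2(value + 5) and 8, all positive, had an adjusted p under 0.05 (permutation test with 100000 resamples, two-sided, Benjamini-Hochberg over 36 pairs). By Spearman rho, 7 pairs had an adjusted p under 0.05. *Pou3f1* and *Sox4* formed the closest pair (r = 0.87, permutation p = 6e-05, adjusted p = 0.00216, rho = 0.78, adjusted p = 0.0218), with r = 0.69 without the 2 lines farthest from the median of *Pou3f1* and r = 0.73 with group means subtracted. *Otx2* and *Grhl2* were next (r = 0.79, permutation p = 0.00082, adjusted p = 0.0142, rho = 0.78, adjusted p = 0.0218), with r = 0.72 without the 2 farthest lines and 0.78 within groups. *Fgf5* followed *Sall2* (r = 0.76, adjusted p = 0.0142 by permutation, rho = 0.64, adjusted p = 0.0608), with r = 0.53 without the 2 farthest lines, and *Fgf15* (r = 0.71, adjusted p = 0.0421 by permutation, rho = 0.72, adjusted p = 0.0337), with r = 0.76 without them. *Pou3f1* also followed *Zic2* (r = 0.72) and *Foxd3* (r = 0.70), and *Fgf15* followed *Grhl2* (r = 0.68) and *Zic2* followed *Foxd3* (r = 0.66). The pairs past the threshold thus joined *Fgf5*, *Fgf15*, *Sall2*, *Otx2* and *Grhl2* on one side, and *Pou3f1*, *Sox4*, *Zic2* and *Foxd3* on the other. *Fgf5* and *Pou3f1* had an r of -0.08 and *Fgf5* and *Foxd3* of -0.62 (adjusted p = 0.0554 by permutation, rho = -0.57). Fits without 1 line gave between 3 pairs past the threshold, without BC XX 3 or CB XY 1, and 9, without CB XX 1. There were 6 without the lines labelled CB XY 2 and 3. With group means subtracted, 32 of 36 pairs were positive, and the median r was 0.47 instead of 0.23. The 2 sides were then not kept apart. *Otx2* had an r of 0.77 with *Sox4* (-0.16 over all lines) and of 0.71 with *Pou3f1* (-0.29 over all lines). Negative within groups were *Fgf5* with *Pou3f1* (-0.22), *Zic2* (-0.19) and *Foxd3* (-0.46), and *Fgf15* with *Foxd3* (-0.17).

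**Figure D3:**
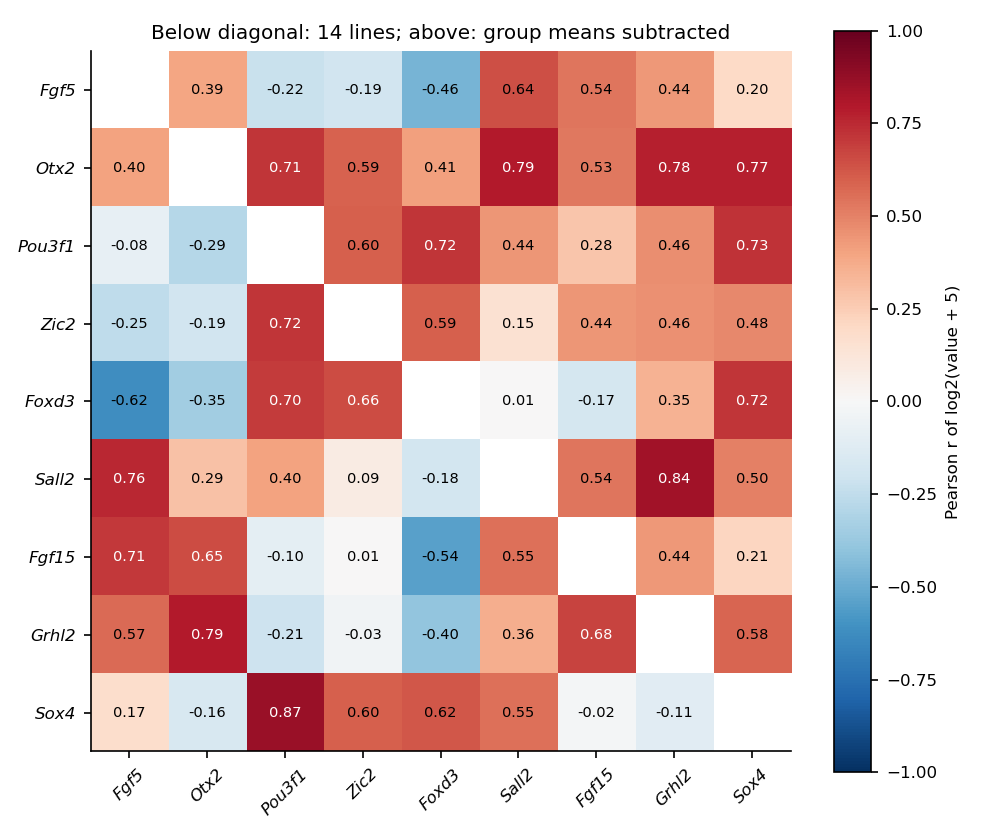
Pearson r of log2(value + 5) for the 36 pairs of genes. Below the diagonal r is over all 14 lines, and above it each group's mean was subtracted first. *Pou3f1* with *Sox4* (0.87) and *Otx2* with *Grhl2* (0.79) have the highest r over all lines.

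The level of the genes was set beside that of 15 naive pluripotency genes, measured as the mean log2(value + 5) per line, a comparison added after the data had been seen. *Fgf5* was lower in lines with a higher naive level (r = -0.79, permutation p = 0.00035, adjusted p = 0.00630 over 18 relations, rho = -0.78, adjusted p = 0.0369), with r = -0.70 both without the 2 farthest lines and with group means subtracted. The naive level was highest in CB XX 1 (12.3), which had an *Fgf5* value of 156, and lowest in BC XY 1 (10.99), which had 1434. In the BC XY group, BC XY 3 had the highest naive level (11.8) and the lowest *Fgf5* value (769). A further 4 genes were past the threshold by Pearson r, with adjusted p by permutation of 0.00927 for *Fgf15* (r = -0.76), 0.0406 for *Grhl2* (r = -0.68), 0.0457 for *Sall2* (r = -0.65) and 0.0457 for *Otx2* (r = -0.64), but by rho none of these 4 was (adjusted p of 0.0674 to 0.0870). *Foxd3* (r = 0.59, adjusted p = 0.0846 by permutation, rho = 0.49), *Zic2* (r = 0.34), *Pou3f1* (r = 0.20) and *Sox4* (r = 0.04) had an r above 0. Without the lines labelled CB XY 2 and 3, 1 of the 9 relations, that of *Fgf5*, was past the threshold (r = -0.79). Fits without 1 line gave between 2 relations, without BC XX 2, BC XY 1, BC XY 2, either XO line, CB XX 2 or the line labelled CB XY 2, and 6, without BC XY 3, and that of *Fgf5* was past the threshold in each. Against the fibroblast marker level, computed over the 11 lines outside the BC XX group because those lines stand apart, r was between -0.08 for *Grhl2* and 0.35 for *Sox4*, and 0 of 9 passed, 0 of them also at an unadjusted p of 0.05. The lines with the most fibroblast RNA were thus not part of this relation. With group means subtracted, r was positive for each of the 9, from 0.12 for *Foxd3* to 0.65 for *Fgf15*, and was not tested.

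**Figure D4:**
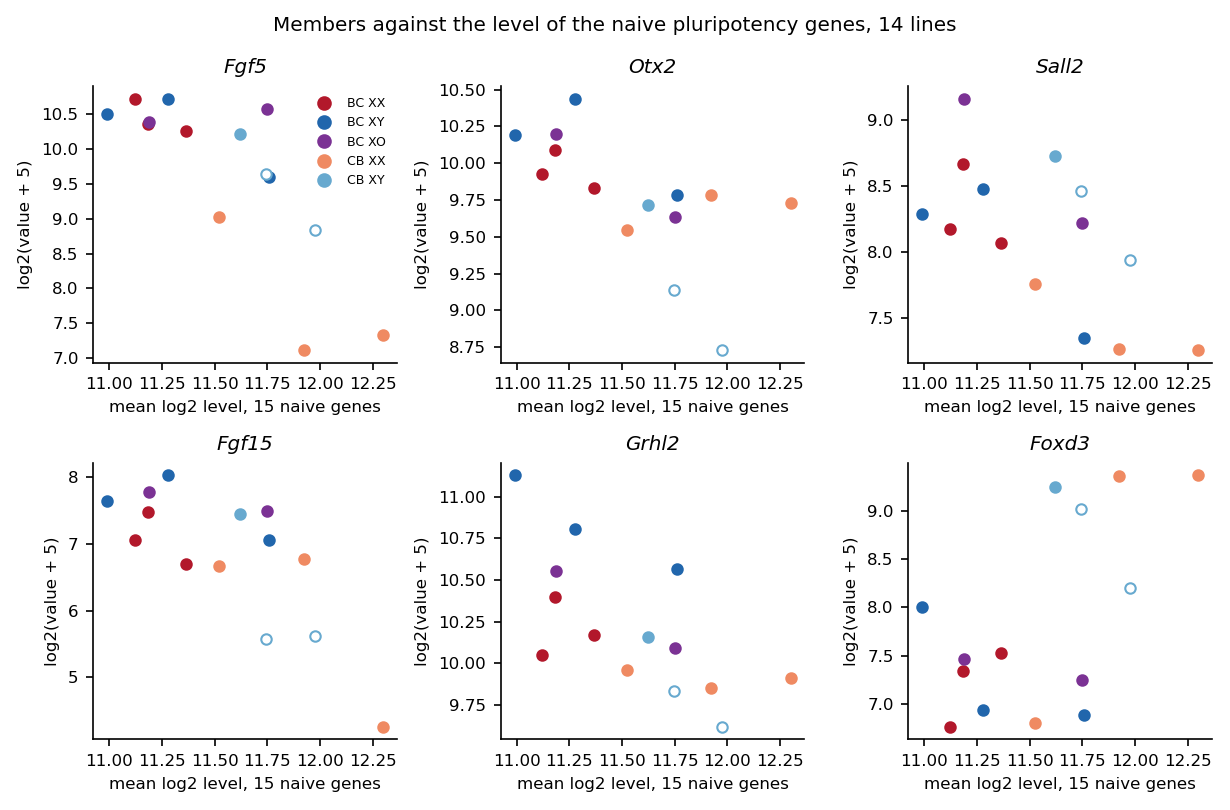
Log2(value + 5) of 6 genes against the mean log2(value + 5) of 15 naive pluripotency genes, 1 point per line, coloured by group, with open circles for the lines labelled CB XY 2 and 3. *Fgf5* is lower where the naive level is higher (r = -0.79), and *Foxd3* has an r of 0.59.

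For each gene, the 3 others with the most similar pattern over the 14 lines were listed among the 16261 genes tested, as a description. *Lhx1* (r = 0.98), *Cyp26a1* (0.98) and *Rasef* (0.96) were nearest to *Fgf5*, for which 44 genes had an r over 0.9, and *Mocs3*, *Adrm1* and *Timm10b* (0.96, 0.95 and 0.95) were nearest to *Foxd3*, with 49 such genes. *Cyp26a1* encodes an enzyme that degrades retinoic acid, and *Lhx1* a LIM homeobox factor of the early embryo. *Otx2* (*Ripply3*, *1500011B03Rik* and *Prdx3*), *Pou3f1* (*4933439C10Rik*, *A630072M18Rik* and *Sox4*), *Zic2* (*Icam4*, *Fam108c* and *Id1*), *Fgf15* (*Nutf2*, *Zfp964* and *Wt1*) and *Grhl2* (*Rbx1*, *Kif20a* and *Btf3*) had 0 genes over 0.9. *Sall2* had 4 (nearest *Mmp25*, *Ror1* and *St8sia3*) and *Sox4* had 1 (nearest *Map7d1* and *Fzd2*).

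Other genes of the formative and primed states were considered as a list of 20. In XX against XY lines, 3 were called, all of them lower in XX, where 1.99% of all genes were called lower. They were the DNA methyltransferase genes *Dnmt3b* (log2 fold change -1.35, limma adjusted p = 0.0171) and *Dnmt3a* (-0.62, adjusted p = 0.0442), and *Lef1*, a Wnt effector (-1.10, adjusted p = 0.0241). The RNA-binding protein gene *Lin28a* did not pass (-0.71, adjusted p = 0.0588). The median of the list was -0.43, with 15 negative values. *Dnmt3b* measured 5027, 9968 and 6195 in BC XX lines and 3923, 2815 and 4403 in CB XX lines, against 16937, 16179 and 6451 in BC XY lines, 8456 and 16879 in XO lines and 15534, 11760 and 12820 in the lines labelled CB XY. Its XX and XY lines overlapped through BC XX 2 and BC XY 3. In CB XX against CB XY, 3 of the 20 were called lower (*Fgf8*, *Dnmt3b* and *Cldn6*), where 1.46% of all genes were, and 10 of the 20 had an unadjusted p under 0.05, where 18.6% of all genes did. The naive genes had 0 of 15 calls by limma in XX against XY (1 at an unadjusted p of 0.05, where 23.1% of all genes were, *Prdm14*, 0.90, adjusted p = 0.0629) and a median of 0.01. In CB XX against BC XX lines, 15 of 15 naive genes were positive with a median of 0.69, and 1 passed (*Klf2*, 1.46, adjusted p = 0.0219). The core factors had 0 of 3 calls (1 at an unadjusted p of 0.05, *Sall4*, -0.61, adjusted p = 0.121).

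Of 19 relatives of the 9 genes, 15 passed the filter and 1 was called in XX against XY, *Sox11*, a relative of *Sox4* (-1.39, limma adjusted p = 0.0394), with a median of -0.20 for the list. In CB XX against CB XY lines *Sox11* fell by 2.31 on the log2 scale (adjusted p = 0.00351). Among 12 epithelial genes tied to *Grhl2* in other tissues, 12 were negative in XX against XY and 4 were called, all lower, with a median of -0.92 (5.21% of all genes were called and 1.99% called lower). Among them were *Rab25*, a vesicle traffic gene (-1.87, adjusted p = 0.00156), the claudin gene *Cldn7* (-1.30, adjusted p = 0.0171) and the splicing regulator gene *Esrp1* (-1.14, adjusted p = 0.0240), while *Grhl2* itself was at -0.30 (adjusted p = 0.459). Of the feedback genes of ERK signalling, 8 of 8 were negative and 0 passed in XX against XY (3 at an unadjusted p of 0.05, a threshold that 23.1% of all genes passed in this comparison, median -0.31). *Dusp6*, an ERK phosphatase gene, was lower in CB XX than in CB XY lines (-1.37, limma adjusted p = 0.00266). There it was the 1 gene of 8 called, where 1.46% of all genes were called lower. In that comparison 7 of the 8 were negative and 1 was positive, with a median of -0.12. Of the primitive streak markers, 5 of 6 passed the filter, 5 of 5 were negative and 0 were called (4 at an unadjusted p of 0.05, median -1.19). Of the other lists, 1 of 9 neural markers tested was called (*Ncam1*, 1.13, adjusted p = 0.0134), as were 0 of 4 neural crest markers (0 at an unadjusted p of 0.05), 0 of 7 endoderm markers (2 at an unadjusted p of 0.05) and 1 of 24 fibroblast markers (*Thy1*, 1.51, adjusted p = 0.0476).

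Without the lines labelled CB XY 2 and 3, fewer genes were called in all, 2.01% in XX against XY and 0.823% in CB XX against CB XY. In XX against XY, *Rab25* (-2.08, limma adjusted p = 0.00293) and *Ncam1* (1.26, adjusted p = 0.0310) stayed called. *Dnmt3b* (-1.37, adjusted p = 0.0673), *Dnmt3a* (-0.73, adjusted p = 0.0687), *Lef1* (-1.07, adjusted p = 0.0987), *Cldn7* (-1.33, adjusted p = 0.0630), *Esrp1* (-1.20, adjusted p = 0.0673), *Sox11* (-1.34, adjusted p = 0.143) and *Thy1* (1.45, adjusted p = 0.148) did not pass, with the sign they had before. The streak marker *Eomes* (-1.42, adjusted p = 0.0410) and the endoderm marker *Gata4* (-2.19, adjusted p = 0.0389) passed in this fit and not with all lines. In CB XX against CB XY, where a single line remained in the second group, *Fgf8* (-4.34, adjusted p = 0.0311), *Sox11* (-2.51, adjusted p = 0.0433) and *Dusp6* (-1.44, adjusted p = 0.0311) stayed called, and *Dnmt3b* (adjusted p = 0.112) and *Cldn6* (adjusted p = 0.246) did not. These fits were chosen after seeing the data.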

How the data were processed

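RNA of 14 ES cell lines was sequenced by the authors from stranded total RNA libraries (single-end reads, TopHat2 and Cuffdiff on mm9, per the submitters' notes). The deposited values are a signal (reads per gene after scaling to a shared depth by the authors, with sums of 28150946 to 30657803 per line), so that the tests for read counts planned at first could not be used. Values were compared as log2(value + 5) with limma 3.58.1 in R 4.3.3 (trended variance) at an FDR of 0.05, for genes at 10 or more in at least 6 lines (XX against XY, 12 lines, no term for the cross) or 2 lines (model of 5 groups). Left out were 15 genes listed at 0 in a whole group and at 100 or more elsewhere. Permutation tests used Python 3.11.15, and the fits were tested on simulated data. Permutations treated all lines alike, although lines of a group share their cross and complement, and r within groups was not tested. The 3 reads that cannot be told from 0 are worth 1.22 to 7.37, which covers counting error only. Gene positions and exon lengths came from GENCODE on mm9. Library batches are not assigned to lines in the sources used here and were not modelled. The genes and lists were chosen with earlier results of these data known. Named are the 9 genes, up to 4 genes per list with the lowest p in XX against XY, and the 3 most similar genes of each of the 9. The Y-linked *Uty* and *Eif2s3y* were named for the labels. Some genes of this rule are not reported here. *Klf2*, *Fgf8*, *Cldn6* and the CB values of *Dusp6*, *Dnmt3b* and *Sox11* were named after their values were seen. Fits without single lines, with other pseudocounts, filters and scalings, with covariates and with the replicate number as a block were alternatives. The fibroblast covariate, the fits without the lines labelled CB XY 2 and 3, the genes at 0 kept and all alternatives for correlations were chosen after seeing the data.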

Additional observations from a re-analysis of the deposited data

Results flagged for a closer look

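Among the 18 sets of 6 lines tested (9 genes in XX and in XY lines), 2 had a line far from the others by Dixon's test, where chance gives about 1 in 20. *Zic2* was at 3488 in CB XY 1, against 1554 to 2094 in the other 5 lines labelled XY. CB XY 1 is the line of its group with *Uty* above the range of the XX and XO lines. *Sox4* was at 496 in CB XX 3, against 707 to 780 in the other 5 XX lines. CB XX 3 also differed from CB XX 1 and CB XX 2 in *Foxd3* (107 against 655 and 649) and in *Fgf5* (516 against 156 and 134). Median log2 deviations of whole chromosomes differed between these lines too. Chromosome 8 was at 0.247 in CB XX 3 and 0.324 in CB XY 1. Chromosome 6 was at 0.234 in CB XX 1, 0.317 in CB XY 2 and 0.255 in CB XY 3. Chromosome 1 was at 0.322 in CB XX 1, and chromosome 12 at -0.289 in CB XX 2. Among BC lines, BC XX 3 was at -0.276 for chromosome 7. The part of any single cause in these values was not tested.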

How the results depend on the processing

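Counts of genes called out of 9 changed as follows, and the cause was not tested. In XX against XY lines the count of 0 became 1 with the fibroblast marker level as a covariate and 2 with the cross and that level. In CB XX against CB XY, the count of 1 became 0 with no filter on low values, with quantile normalization, with the lines of both groups alone and without the lines labelled CB XY 2 and 3, and 2 with the fibroblast covariate. In CB XX against BC XX, 1 became 0 with both groups alone and with the fibroblast covariate. In CB XY against BC XY, 1 became 0 with no filter and without the lines labelled CB XY 2 and 3, and 2 with the fibroblast covariate. Fits without 1 line gave 0 to 2 calls in CB XX against CB XY, 1 to 2 in CB XX against BC XX and 0 to 3 in CB XY against BC XY. Pairs correlated past the threshold were 3 to 9 without 1 line (8 with all), and genes correlated with the naive level were 2 to 6 (5 with all), or 1 without the lines labelled CB XY 2 and 3. That of *Fgf5* was past the threshold throughout (r of -0.85 to -0.69). In the other 4 comparisons named as counts, BC XX against BC XY, both with XO lines and the interaction, no alternative moved the count of 0.

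In XX against XY, the log2 fold change of *Otx2* (0.15) was -0.21 without the lines labelled CB XY 2 and 3, -0.000295 with the fibroblast covariate, and -0.036 to 0.31 without 1 line. That of *Foxd3* (-0.19) was 0.091, 0.23 and -0.49 to 0.049 in the same fits, and that of *Fgf15* (-0.41) was -0.67 to 0.038 without 1 line. In BC XX against BC XY, that of *Fgf5* (0.18) was -1.25 with the fibroblast covariate and -0.16 to 0.40 without 1 line. None of these 4 passed the test in any fit. Of 33 fold changes given for single genes, these 4 changed sign. Of the 39 others, none of which passed the test, 29 changed sign under at least 1 alternative and 0 passed in any.

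Replicate numbers did not pair the lines. Correlations of the deviations from group means were -0.49 to 0.27 for 15 pairs of lines with the same number (4 over 0.1) and -0.49 to 0.49 for 30 pairs with different numbers (9 over 0.1). With the replicate number as a block, fitted over the 11 lines outside CB XX, whose columns carry no label number, CB XY against BC XY had 2 calls (*Grhl2*, and *Foxd3* with an adjusted p of 0.0385), and the block changed no other count. Tests on read counts with edgeR and DESeq2 and TMM scaling, planned for recovered reads, were not run because the deposited values are scaled. With 2 or 3 lines a group, differences smaller than the intervals given were not detectable.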

Other observations

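*Zic5*, which is transcribed next to *Zic2* in the opposite direction, measured 146, 244 and 171 in BC XX lines, 154, 387 and 485 in BC XY lines, 386 and 281 in XO lines, 509, 726 and 231 in CB XX lines and 741, 678 and 630 in the lines labelled CB XY. As for *Zic2*, the highest value was that of CB XY 1. *Utf1*, a chromatin protein gene of pluripotent cells, measured 739, 727 and 368 in BC XX lines, 1117, 1750 and 1042 in BC XY lines, 1793 and 1789 in XO lines, 3700, 3854 and 955 in CB XX lines and 4065, 4888 and 3627 in the lines labelled CB XY. It rose in CB XX relative to BC XX lines (log2 fold change 2.03, limma adjusted p = 0.0178). In this comparison it was the 1 gene called higher among the 20 other formative and primed genes, and 2 were called lower. Over all genes, 2.90% were called higher and 4.25% lower. Of the 20, 12 were negative, with a median of -0.20. For *Utf1*, 5 of the 6 CB lines lay above every BC line, and CB XX 3 did not, which is the order that *Foxd3* had. Both genes were named after their values were seen.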
